A study of Oryza sativa Indica Group with 16 samples.

Results

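The salt response of the tolerant bulk was read from 4 Affymetrix rice arrays of the 16 in the series: 2 arrays of salt-treated seedlings and 2 arrays of control seedlings of a pool of salt-tolerant recombinant lines. These 4 arrays were picked out by sample title, with no measured value. The salt group had 24 h of 150 mM NaCl, the control group is labelled only as control conditions, and the seedlings of both were sampled 10 days after germination. A pool of salt-sensitive recombinant lines, with 2 salt and 2 control arrays of the same age and treatment, served for comparison, and the parents CSR27 (tolerant) and MI48 (sensitive) were not used. All plants were Oryza sativa Indica Group. The bulks are pools, so each value is an average over lines whose number is not given in the sources used here, and the tissue is given only as seedling. The series text calls the 2 arrays of a group biological replications without saying how the plants were divided, so the p-values reflect only how far these arrays differ, which may be technical.

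Salt around the roots withdraws water from plant cells and loads them with sodium. Plants respond through the hormone abscisic acid (ABA): bound to its receptors it blocks type 2C protein phosphatases, which frees SnRK2 kinases to activate bZIP transcription factors, and these switch on protective genes such as the dehydrins and other late embryogenesis abundant (LEA) proteins. Potassium and sodium transporters, calcium sensors of the CBL and CIPK families, enzymes for compatible solutes such as proline, and chaperones form other parts of the response, while cell division and photosynthesis are commonly slowed.

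Of 57381 probe sets 123 Affymetrix controls were left out, and the 8 bulk arrays were scaled to a common median signal of 18.4. Before scaling the array medians were 18.7 and 19.3 in tolerant bulk salt and 23.4 and 15 in tolerant bulk control. A probe set was tested if it reached 18.4 on at least 2 of the 8 arrays, which 32996 did. Changes are differences of log2(signal + 4), salt minus control, which understates the change of dim genes, and a ± sign gives the standard error of the limma fit with n = 2 salt and 2 control arrays. The file holds no detection calls, and values under 18.4 are dim. Control probe sets gave the ratio of signal at the 3' end to signal at the 5' end of a transcript. For actin it was 9.15 and 10.9 in tolerant salt and 8.82 and 12.4 in tolerant control. For Gapdh it was 6.76 and 6.45, against 6.34 and 7.88, and for Cyph 3.85 and 3.44, against 4.08 and 2.5. The part of RNA quality in probe sets of a gene that disagree was not tested. The rank correlation over the 8 arrays was 0.926 to 0.964, and it was 0.958 between the tolerant salt arrays and 0.964 between the tolerant control arrays. Between the sensitive salt arrays it was 0.952, and between the sensitive control arrays 0.9455.

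Salt changed 1785 of the 32996 probe sets in the tolerant bulk at an adjusted p under 0.05, which is 5.41%. Of these 325 rose (0.985% of those tested) and 1460 fell (4.42%). These shares are the ones to set beside the counts of gene lists below. The called rises had a median of 1.22 log2 units and the called falls a median of -0.88. Beyond 2 log2 units stood 53 rises and 103 falls. A named gene belonged to 295 of the called probe sets, a gene with only a locus number to 1090, and no gene to 400, so the genes named below are a minority of the response.

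The surplus of falls depended on the scale. Under median scaling the median change of all tested probe sets was -0.14, and 18.2% of the calls were rises; after quantile normalization the median was 0.00, 745 probe sets rose (2.26%) and 897 fell (2.72%), together 4.98%, and 45.4% of the calls were rises. The shift grew with brightness. Its median was 0.01 in the dimmest of 4 equal classes and -0.23 in the brightest, where 156 rose and 961 fell under median scaling, against 459 and 524 after quantile normalization. Spike-in RNA moved the same way: all 36 probe sets of the poly-A spike-ins were lower on the salt arrays (median change -0.39), with median signals of 2504 and 2507 on the tolerant salt arrays and 2920 and 3244 on the tolerant control arrays. All 27 hybridisation spike-in probe sets were lower as well by the group means (median change -0.29). Their median signals overlapped between groups, at 459 and 635 on the tolerant salt arrays and 485 and 951 on the tolerant control arrays. The part of the scale in the falls was not tested. Of the calls, 322 of 325 rises and 891 of 1460 falls passed with the same sign after quantile normalization too. Named falls that did not pass after it are marked as such. The 258 named results include uncalled ones. Many of the calls among them were lost once 1 of the 4 tolerant arrays was left out, which leaves 1 array in a group.

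**Figure D1:**
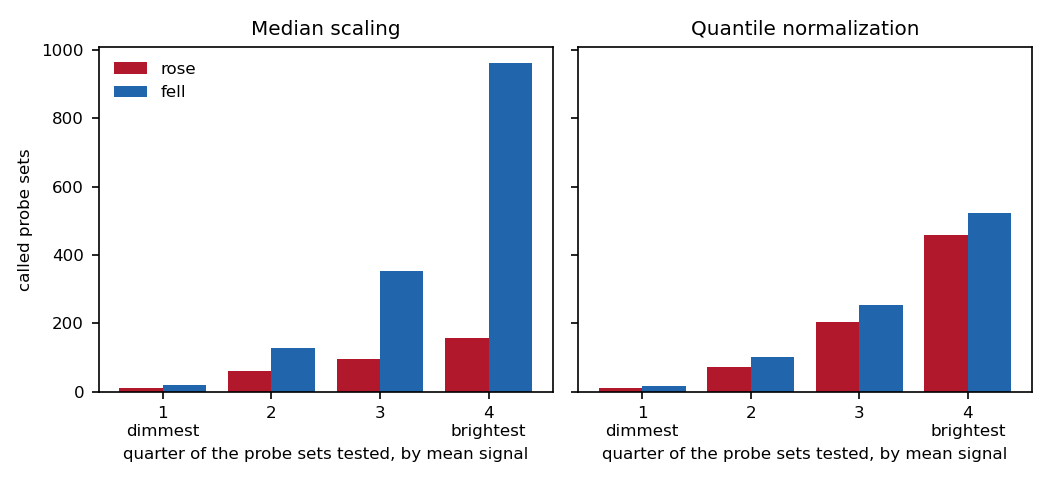
Called probe sets that rose or fell with salt in the tolerant bulk, in 4 equal classes of the tested probe sets from the dimmest (left) to the brightest (right), under median scaling and after quantile normalization. In the brightest class 961 fell and 156 rose under median scaling, against 524 and 459 after quantile normalization.

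The dehydrins of the RAB16 group, small hydrophilic proteins that accumulate in drying seeds and water-stressed tissue, and the LEA protein LEA3-1 formed the list with the largest median change of the 44 gene lists. Of 9 tested probe sets for dehydrins and LEA proteins 6 rose and 0 fell, with a list median of 2.89 beside -0.14 for all probe sets tested, and 0.985% of all probe sets rose. RAB16B had signals of 644 and 474 in tolerant bulk salt and 36.8 and 31.5 in tolerant bulk control. Both salt arrays lay far above both control arrays, and the change was 3.87 ± 0.20 (adjusted p = 3.5e-06). RAB21 was the brightest member, with 2760 and 2805 in tolerant salt and 243 and 245 in tolerant control (3.49 ± 0.13, adjusted p = 1.6e-06). A further probe set of RAB21, of a type that can also bind related transcripts, rose by 2.89 ± 0.13.

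LEA3-1 had 608 and 632 in tolerant salt, against 76.5 and 63.5 in tolerant control (3.08 ± 0.30, adjusted p = 2.7e-04). RAB16D had 510 and 581 in tolerant salt, against 75 and 60.4 in tolerant control (2.94 ± 0.25, adjusted p = 1.0e-04). RAB16C had 238 and 229 in tolerant salt, against 60 and 64.4 in tolerant control (1.84 ± 0.21, adjusted p = 7.7e-04). None of these 3 genes had overlapping groups, and both salt arrays were above both control arrays for 16.0% of all probe sets tested. RAB16D, RAB16C, RAB16B and RAB21 are 4 consecutive genes on chromosome 11, which is the longest run of neighbouring genes that rose; sequence shared within the family could carry signal between their probe sets, which was not tested. Among 9577 tested pairs of adjacent genes both rose in 11, or 0.115%, while 1.46% of the genes rose.

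The members of the list that did not pass were Dhn1, rab25 and EM. Dhn1, a dehydrin also called LIP9, had 894 and 897 in tolerant salt and 631 and 579 in tolerant control (0.56 ± 0.16, adjusted p = 0.076), while after quantile normalization the change of 0.80 did pass (adjusted p = 0.0021). The groups of Dhn1 did not overlap, with salt above control as at 16.0% of all probe sets tested. EM, an LEA protein of the maturing embryo, had 38.9 and 48.5 in tolerant salt and 33.2 and 35.9 in tolerant control (0.30, adjusted p = 0.66), close to the dim end of the scale.

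**Figure D2:**
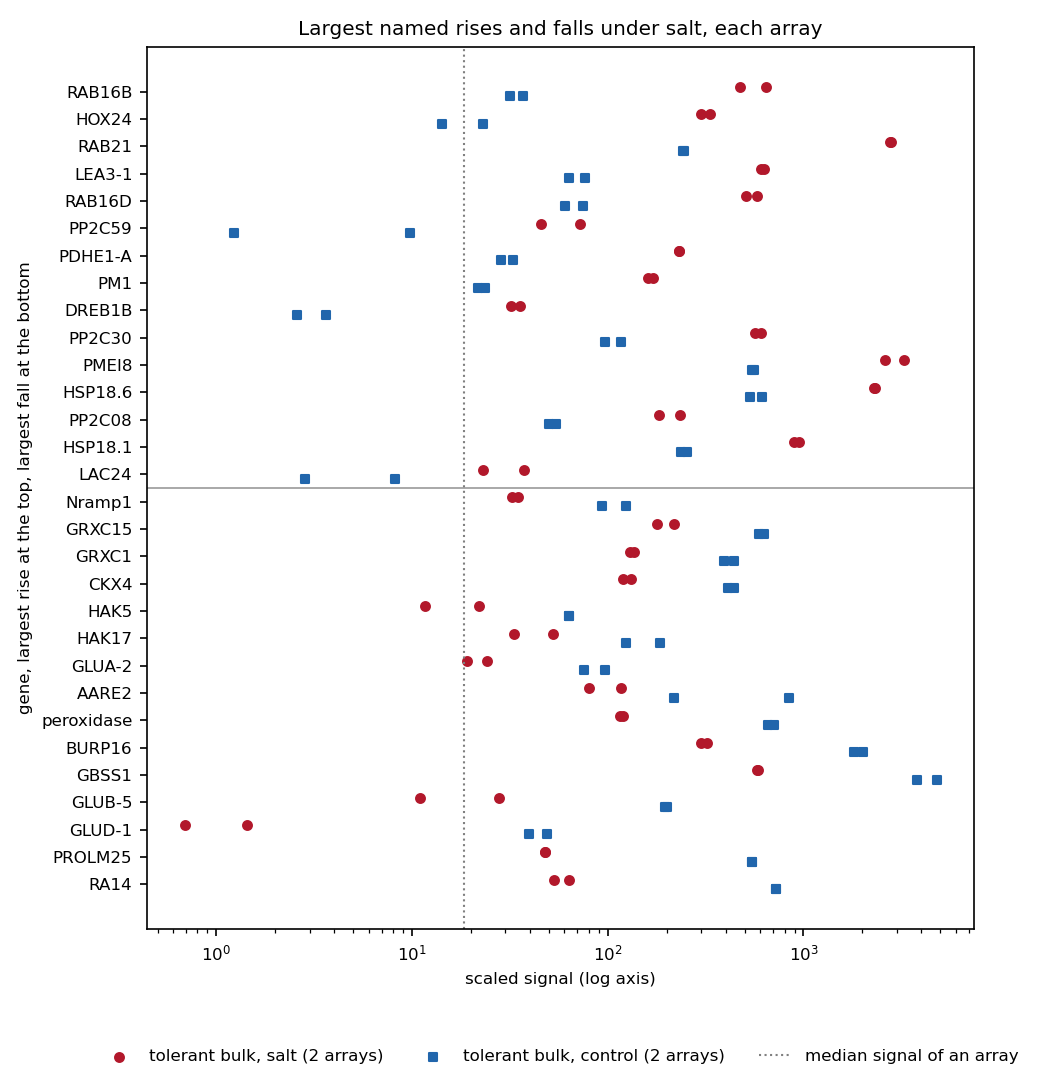
Scaled signal (log axis) of the 15 largest named rises and the 15 largest named falls in the tolerant bulk, each point 1 array, red circles for salt and blue squares for control. The salt and control arrays do not overlap for any of the 30 genes, which the rule for choosing them required; PP2C59, DREB1B, LAC24 and GLUD-1 are among the genes with points below the median signal of 18.4 (dotted line).

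Among genes of ABA signalling, several phosphatases rose, and the kinases and the receptor did not pass. Of 66 tested probe sets for type 2C protein phosphatases 5 rose and 3 fell, beside 0.985% and 4.42% of all probe sets. This list takes in the family by name, whether or not a member acts in ABA signalling. PP2C30 had 610 and 563 in tolerant salt, against 96.8 and 117 in tolerant control (2.42 ± 0.17, adjusted p = 2.6e-05). PP2C08 had 182 and 233 in tolerant salt, against 54.4 and 50 in tolerant control (1.90 ± 0.26, adjusted p = 0.0021). ABIL1, named for its likeness to the Arabidopsis phosphatase ABI1, had 509 and 465 in tolerant salt, against 184 and 155 in tolerant control (1.50 ± 0.16, adjusted p = 5.5e-04).

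PP2C09 rose by the same size (1.50 ± 0.24, adjusted p = 0.0048). PP2C59 had 72.5 and 45.8 in tolerant salt, against 9.74 and 1.23 in tolerant control (2.86 ± 0.59, adjusted p = 0.019). Its control values lie below the median signal and differ widely from each other, and the call was lost without a filter and without either tolerant salt array or tolerant control replicate 2 (adjusted p up to 0.17). The phosphatases that fell, OsPP2C39, OsPP2C54 and OsPP2C01, had changes of -0.92, -0.89 and -0.82, and -0.66, -0.69 and -0.60 after quantile normalization. The list median was -0.18, near that of all probe sets.

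Of 11 probe sets for ABA receptors and SnRK2 kinases 0 passed in limma in either direction, with 1 at an unadjusted p under 0.05. Their changes ran from -0.60 for PYL11, the 1 receptor tested (adjusted p = 0.12), to 0.31 for SAPK10 (adjusted p = 0.45). SAPK4, a SnRK2 kinase, had 1004 and 1013 in tolerant salt and 908 and 802 in tolerant control (0.24 ± 0.13, adjusted p = 0.35), while after quantile normalization its change of 0.48 did (adjusted p = 0.027). ABA8OX2, an ABA 8'-hydroxylase that breaks the hormone down, had 332 and 317 in tolerant salt, against 97 and 112 in tolerant control (1.60 ± 0.27, adjusted p = 0.0065). Its relative ABA8OX1 had 63.2 and 79.3 in tolerant salt and 64 and 82 in tolerant control (-0.03, adjusted p = 0.96), so the groups overlapped.

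Of 22 bZIP factor probe sets 3 rose and 0 fell, beside 0.985% and 4.42% of all probe sets. BZIP23, a rice factor that acts in ABA signalling, had 1052 and 1061 in tolerant salt, against 517 and 525 in tolerant control (1.01 ± 0.14, adjusted p = 0.0021). TRAB1, which binds ABA-responsive promoters, had 925 and 994 in tolerant salt, against 642 and 490 in tolerant control (0.77 ± 0.17, adjusted p = 0.027). BZIP60 rose by 0.93 ± 0.23 (adjusted p = 0.045), near the threshold.

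HOX24, a homeodomain-leucine zipper factor, was the transcription factor with the largest named rise. It had 334 and 298 in tolerant salt, against 14.2 and 22.9 in tolerant control (3.85 ± 0.24, adjusted p = 1.5e-05), so the control arrays were at about the median signal and the salt arrays well above it. Hox22, of the same class, had 472 and 497 in tolerant salt, against 250 and 246 in tolerant control (0.95 ± 0.13, adjusted p = 0.0025). Of 15 probe sets of this class 2 rose and 1 fell; the fall was that of Hox16 (-0.55, and -0.29 after quantile normalization with adjusted p = 0.083). The remaining members lay between -0.81 and 0.68.

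DREB1B, which binds the dehydration-responsive element, had 32.1 and 35.6 in tolerant salt, against 3.61 and 2.57 in tolerant control (2.42 ± 0.54, adjusted p = 0.028). The control values are dim, and the call was lost without a filter and without any 1 of the 4 tolerant arrays (adjusted p up to 0.20). The other 6 probe sets of DREB and ERF factors did not pass, nor did the 9 of NAC, the 3 of WRKY or the 13 of MYB factors, with 1 WRKY rise after quantile normalization. NAC6 had 605 and 401 in tolerant salt and 603 and 593 in tolerant control (-0.28, adjusted p = 0.52), with overlapping groups. At an unadjusted p under 0.05 in limma stood 3 NAC, 1 WRKY and 1 rising and 1 falling MYB probe sets, and 19.0% of all probe sets. These lists hold only those family members that the annotation names.

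Heat shock transcripts moved in both directions. Of 34 tested probe sets for heat shock proteins and chaperones 9 rose and 3 fell, beside 0.985% and 4.42% of all probe sets. The list median was 0.15. After quantile normalization 12 rose and 1 fell, beside 2.26% and 2.72% of all probe sets. HSP18.6, a small heat shock protein, had 2307 and 2286 in tolerant salt, against 615 and 531 in tolerant control (2.00 ± 0.24, adjusted p = 9.3e-04), another of its probe sets rose by 2.29 ± 0.20, and a dim one had 3.24 and 15.6 in tolerant salt and 1.49 and 20.8 in tolerant control (0.03, adjusted p = 0.99). HSP18.1 had 954 and 896 in tolerant salt, against 238 and 254 in tolerant control (1.89 ± 0.14, adjusted p = 3.2e-05). In the opposite direction HSP18.8 had 1129 and 1519 in tolerant salt, against 3415 and 3647 in tolerant control (-1.43 ± 0.21, adjusted p = 0.0036).

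The small heat shock proteins are a family of similar sequences, and whether probe sets share signal was not tested. HSP18.0, HSP16.9B and hsp17.9 rose by 1.24, 1.09 and 0.47. CLPB1, a chaperone that dissolves protein aggregates, had 377 and 497 in tolerant salt, against 181 and 220 in tolerant control (1.10 ± 0.21, adjusted p = 0.013). BIP1, the chaperone of the endoplasmic reticulum, fell by 0.51, and by 0.24 after quantile normalization, where it did not pass (adjusted p = 0.19).

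Of 28 heat shock factor probe sets 4 rose and 2 fell, beside 0.985% and 4.42% of all probe sets. HSFA6B had 193 and 198 in tolerant salt, against 72.6 and 83.2 in tolerant control (1.28 ± 0.19, adjusted p = 0.003). HSFC2A, HSFA2C and HSFB2A rose by 1.25, 1.03 and 0.89, each at 1 probe set, and a second probe set of HSFA2C had a change of -0.09 (adjusted p = 0.86). HSFC1A, at 33.5 and 37.1 in tolerant salt and 87.5 and 89.7 in tolerant control, fell by 1.24 (adjusted p = 0.048), and neither fall, HSFC1A or HSFA2D, passed after quantile normalization.

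Potassium transporters of the HAK family fell where they passed. Of 31 probe sets for potassium and sodium transporters 0 rose and 3 fell, beside 0.985% and 4.42% of all probe sets. The list median was -0.18, and 2 rose and 3 fell after quantile normalization. HAK17 had 33 and 52.6 in tolerant salt, against 184 and 124 in tolerant control (-1.76 ± 0.31, adjusted p = 0.0082), and its other probe set fell by 1.12. HAK5, a high-affinity potassium transporter, had 22 and 11.6 in tolerant salt, against 63.2 and 63.3 in tolerant control (-1.74 ± 0.31, adjusted p = 0.0097).

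A brighter probe set of HAK5 had 1774 and 1826 in tolerant salt and 2069 and 2158 in tolerant control (-0.23, adjusted p = 0.43), so the probe sets of this gene disagree. The calls of HAK17 and HAK5 each rested on single arrays: HAK17 was lost without tolerant salt replicate 1 or tolerant control replicate 1, and HAK5 without tolerant salt replicate 2 or either tolerant control array (adjusted p up to 0.10 and 0.096). HKT1;5, a sodium transporter that retrieves sodium from the xylem and lies under a salt tolerance locus, had 82 and 63.8 in tolerant salt and 58.2 and 62.5 in tolerant control (0.25 ± 0.23, adjusted p = 0.63). Both salt arrays of HKT1;5 were above both control arrays, which held for 16.0% of all probe sets tested.

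Among 38 probe sets of the CBL and CIPK calcium sensors and kinases 1 rose and 5 fell, beside 0.985% and 4.42% of all probe sets. After quantile normalization 2 rose and 4 fell. CIPK10 had 213 and 244 in tolerant salt, against 559 and 643 in tolerant control (-1.38 ± 0.18, adjusted p = 0.0015), and another probe set of it fell by 1.05. CBL4, the calcium sensor of the SOS sodium export pathway, had 44.8 and 65.4 in tolerant salt, against 146 and 128 in tolerant control (-1.27 ± 0.26, adjusted p = 0.018). CIPK7 fell by 1.24 ± 0.20 and CIPK25 by 0.76 (-0.55 after quantile normalization, adjusted p = 0.085), and CIPK16 rose by 1.26 (adjusted p = 0.048). Of 43 probe sets for calmodulins and calcium-dependent kinases 0 rose and 2 fell, CML10 (-1.27 ± 0.15) and CPK1 (-0.84 ± 0.13); these are 4.65% of the list, near the 4.42% of all probe sets that fell. None of the 18 MAP kinase probe sets passed in limma under either scaling, and 5 were lower at an unadjusted p under 0.05.

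For compatible solutes, the proline synthesis enzyme P5CS2 had 115 and 122 in tolerant salt, against 28.4 and 32.2 in tolerant control (1.84 ± 0.23, adjusted p = 0.0012). A second probe set of P5CS2 had 42.6 and 21.7 in tolerant salt and 40.9 and 25.1 in tolerant control (-0.06, adjusted p = 0.96), so the probe sets disagree. P5CS1, the brighter gene of the same step, had 1157 and 1283 in tolerant salt and 867 and 884 in tolerant control (0.47 ± 0.19, adjusted p = 0.20). Its groups did not overlap, with salt above control as at 16.0% of all probe sets tested. After quantile normalization its change was 0.71 (adjusted p = 0.014). TPP1, a trehalose-phosphate phosphatase, had 127 and 151 in tolerant salt, against 369 and 362 in tolerant control (-1.37 ± 0.21, adjusted p = 0.0035). In all 1 rose, 1 fell and 16 did not pass among 18 probe sets for osmolyte synthesis, and 3 rose and 1 fell after quantile normalization.

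Sugar transporters of the SWEET family moved apart. SWEET15 had 520 and 504 in tolerant salt, against 228 and 225 in tolerant control (1.16 ± 0.20, adjusted p = 0.0075). SWEET11 had 156 and 159 in tolerant salt, against 467 and 458 in tolerant control (-1.53 ± 0.16, adjusted p = 4.6e-04). SWEET1B, SWEET2A and SWEET2B fell by 1.30, 1.13 and 1.03. That makes 1 rise and 4 falls among 19 sugar transporter probe sets, beside 0.985% and 4.42% of all probe sets. Sucrose synthase SUS1 had 1508 and 1508 in tolerant salt, against 2442 and 2935 in tolerant control (-0.83 ± 0.15, adjusted p = 0.0093; -0.50 after quantile normalization, adjusted p = 0.038), 1 of 4 falls and 0 rises among 17 probe sets for sucrose synthases, invertases and sucrose-phosphate synthases (2 falls and 1 rise after quantile normalization).

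Channels for water and silicon moved in both directions. Of 28 aquaporin probe sets TIP2, of the vacuolar membrane, rose (0.73, adjusted p = 0.025) and PIP2-7 of the plasma membrane and the silicon channel Lsi1 fell (both -0.82), which is 3.57% rising and 7.14% falling, beside 0.985% and 4.42% of all probe sets. PIP1-2, among the brightest, had 5588 and 6260 in tolerant salt and 5063 and 6971 in tolerant control, so the groups overlapped (-0.01, adjusted p = 0.99).

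Genes of cell division and of cytokinin action fell where they passed, and falls were the more common call over all probe sets too (4.42%, against 0.985% rises). Of 56 probe sets for cyclins, cyclin-dependent kinases and histones 0 rose and 8 fell, and 6 fell and 1 rose after quantile normalization. CDKB2-1, a kinase of mitotic entry, had 105 and 92.6 in tolerant salt, against 209 and 185 in tolerant control (-0.97 ± 0.20, adjusted p = 0.020). CYCB1-1, a mitotic cyclin, had 141 and 174 in tolerant salt, against 303 and 318 in tolerant control (-0.97 ± 0.22, adjusted p = 0.032). H2B.10, a histone, had 563 and 557 in tolerant salt, against 1082 and 1062 in tolerant control (-0.93 ± 0.17). Both salt arrays lay below both control arrays for all 3, as they did for 38.9% of all probe sets tested.

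Of 37 DNA replication probe sets 0 rose and 3 fell: RPA1B, of the single-strand binding complex, by 1.02, the helicase subunit MCM2 by 0.72 and SPO11-3 by 0.66. Over all probe sets 4.42% fell. After quantile normalization only RPA1B of these 3 passed (-0.81, adjusted p = 0.038).

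Of 31 cytokinin probe sets 0 rose and 6 fell, beside 0.985% and 4.42% of all probe sets, and 4 fell after quantile normalization. CKX4, an oxidase that degrades cytokinin, had 132 and 119 in tolerant salt, against 439 and 412 in tolerant control (-1.73 ± 0.15, adjusted p = 1.4e-04). RR9, a response regulator that cytokinin induces, had 137 and 137 in tolerant salt, against 327 and 307 in tolerant control (-1.19 ± 0.16, adjusted p = 0.0023). The response regulators RR2 and RR4 fell by 1.03 and 0.91, though RR2 did not pass after quantile normalization (adjusted p = 0.072), and LOG, which activates cytokinin, by 0.88.

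Of 63 auxin probe sets 3 fell (GH3.5, IAA31 and IAA5) and 0 rose. These are 4.76% of the list, near the 4.42% of all probe sets that fell, and the list median of -0.14 equals that of all probe sets. After quantile normalization GH3.5 passed, and IAA31 (-0.41, adjusted p = 0.076) and IAA5 (-0.19, adjusted p = 0.36) did not. JAZ13, a jasmonate repressor, had 100 and 126 in tolerant salt, against 34.8 and 38.7 in tolerant control (1.52 ± 0.29, adjusted p = 0.012), and JAZ4 fell by 0.90 at 1 of 2 probe sets. The jasmonate list held 1 rise and 2 falls among 33, or 3.03% and 6.06%. Of 12 gibberellin probe sets GID2 and OsKO1 fell (16.7%), by 0.63 and 0.93, but GID2 did not pass after quantile normalization (-0.32, adjusted p = 0.074). None of the 9 ethylene probe sets passed in limma under either scaling, with 3 lower at an unadjusted p under 0.05.

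In the cell wall lists XTH8, an enzyme that remodels xyloglucan, had 969 and 1005 in tolerant salt, against 2736 and 2200 in tolerant control (-1.31 ± 0.15, adjusted p = 7.7e-04). The list of cellulose synthases and wall enzymes, which holds XTH8, had 2 rises and 3 falls among 61 probe sets. Over all probe sets 0.985% rose and 4.42% fell. The expansins EXP2 and EXPB6, which loosen walls, fell by 1.08 and 0.85, and the other 22 expansin probe sets did not pass. The cellulose synthase CESA3 rose by 0.65 ± 0.13 at 1 probe set (adjusted p = 0.016) and had a change of -0.05 at a brighter one. LAC24, a laccase, had 37.2 and 23 in tolerant salt, against 2.83 and 8.21 in tolerant control (1.87 ± 0.44, adjusted p = 0.033), a dim probe set that lost its call under 8 of 13 other settings.

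Photosynthesis and nitrogen assimilation genes fell in part. Of 27 leaf photosynthesis probe sets 0 rose and 10 fell, beside 0.985% and 4.42% of all probe sets, with a list median of -0.46. After quantile normalization 6 fell and the median was -0.18. RBCS, the small subunit of Rubisco, had a probe set at 986 and 1190 in tolerant salt, against 2072 and 2733 in tolerant control (-1.13 ± 0.19, adjusted p = 0.0077; -0.84 after quantile normalization, adjusted p = 0.045). The brightest RBCS probe set, at 4931 and 4479 in tolerant salt and 4320 and 6669 in tolerant control, had overlapping groups (-0.19, adjusted p = 0.74). GLO5, a glycolate oxidase of photorespiration, fell at all 3 of its probe sets, by 0.72 to 0.92.

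The summed signal of the 29 leaf probe sets was 66712 and 68574 on the tolerant salt arrays and 74779 and 103317 on the tolerant control arrays, and 26 of the 29 were at or above the median signal on all 4. The summed signal of the 17 root uptake probe sets was 3292 and 2775 in tolerant salt and 4074 and 3780 in tolerant control, and 13 of 17 were at or above the median signal. Of the 13 root uptake probe sets tested 3 fell (NAAT1, Lsi1 and AMT1) and 0 rose, and NAAT1 did not pass after quantile normalization (adjusted p = 0.072). The part of tissue makeup in these changes was not tested; in a whole seedling fewer cells of a type and less RNA per cell cannot be told apart.

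Of 16 nitrogen probe sets 0 rose and 6 fell, beside 0.985% and 4.42% of all probe sets. The list median was -0.66, and 5 fell after quantile normalization. NIA1, a nitrate reductase, had 2826 and 2759 in tolerant salt, against 4693 and 5889 in tolerant control (-0.91 ± 0.14, adjusted p = 0.0042; -0.66 after quantile normalization, adjusted p = 0.0021). GLN1-2, a cytosolic glutamine synthetase, had 351 and 302 in tolerant salt, against 662 and 661 in tolerant control (-1.01 ± 0.18, adjusted p = 0.0090). Fd-GOGAT, which makes glutamate in leaves, fell at 3 probe sets, by 0.73 to 0.97, of which 1 did not pass after quantile normalization (adjusted p = 0.051). The ammonium transporter AMT1 fell by 0.88.

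Among 47 probe sets for glutaredoxins, thioredoxins and glutathione transferases 8 fell and 0 rose, beside 4.42% and 0.985% of all probe sets. After quantile normalization 6 fell. All 8 were glutaredoxins or thioredoxins. GRXC1 had 130 and 136 in tolerant salt, against 394 and 440 in tolerant control (-1.62 ± 0.19, adjusted p = 8.6e-04). GRXC15 had 217 and 178 in tolerant salt, against 629 and 592 in tolerant control (-1.62 ± 0.16, adjusted p = 3.4e-04). TRXM, thioredoxins of the plastid, fell by 1.16 and 1.17. In contrast SODCC.2, a cytosolic superoxide dismutase, had 1889 and 1929 in tolerant salt, against 1116 and 1063 in tolerant control (0.81 ± 0.16, adjusted p = 0.015), and it was the 1 rise beside 3 falls among 22 probe sets for superoxide dismutases, ascorbate peroxidases and catalases. After quantile normalization none of those 3 falls (catA, sodA and APX8) passed.

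Metal handling genes held 2 rises and 4 falls among 55 probe sets under median scaling, and 5 rises and 2 falls after quantile normalization. Over all probe sets 0.985% rose and 4.42% fell under median scaling, and 2.26% and 2.72% after quantile normalization. The metallothionein MT1B had 976 and 860 in tolerant salt, against 468 and 410 in tolerant control (1.06 ± 0.19, adjusted p = 0.0089). Nramp1, a metal transporter, had 32.3 and 34.8 in tolerant salt, against 124 and 93.2 in tolerant control (-1.57 ± 0.31, adjusted p = 0.014), a call lost without any 1 of the 4 tolerant arrays. PHO1-2, of the phosphate exporter family, rose at a dim probe set (1.55, adjusted p = 0.026) and had 611 and 542 in tolerant salt and 526 and 555 in tolerant control at a brighter one (0.09, adjusted p = 0.80).

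In the defence list Cht1, a chitinase, had 476 and 469 in tolerant salt, against 184 and 142 in tolerant control (1.52 ± 0.19, adjusted p = 0.0012). RBBI3.3, a Bowman-Birk protease inhibitor, had 1154 and 1407 in tolerant salt, against 544 and 494 in tolerant control (1.29 ± 0.23, adjusted p = 0.0084). Cht11 fell by 1.35 and PBZ1, a pathogenesis-related protein, by 0.63, so 3 rose and 2 fell among 26. After quantile normalization PBZ1 did not pass (-0.41, adjusted p = 0.059), and 5 rose and 1 fell. The salt-inducible lectin salT had 1145 and 982 in tolerant salt and 758 and 811 in tolerant control at one probe set (0.43 ± 0.14, adjusted p = 0.11) and a change of 0.20 at another, and both passed after quantile normalization (0.68 and 0.46). None of 13 phytoalexin synthesis probe sets and none of 20 clock and flowering probe sets passed in limma under either scaling; 3 of each were at an unadjusted p under 0.05.

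Some of the largest named rises stood outside these lists. PDHE1-A, by its name a subunit of pyruvate dehydrogenase, had 232 and 230 in tolerant salt, against 32.6 and 28.4 in tolerant control (2.77 ± 0.20, adjusted p = 3.8e-05). PM1, a membrane protein of the AWPM-19 family, had 171 and 160 in tolerant salt, against 23.7 and 21.8 in tolerant control (2.67 ± 0.27, adjusted p = 3.9e-04). PMEI8, a pectin methylesterase inhibitor, had 2598 and 3267 in tolerant salt, against 560 and 545 in tolerant control (2.39 ± 0.14, adjusted p = 8.2e-06). All 3 were tight within groups and far apart between them.

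Among named genes the largest falls outside the seed genes were those of BURP16 and a gene named only peroxidase. BURP16, of the plant BURP domain family, had 320 and 298 in tolerant salt, against 1820 and 2016 in tolerant control (-2.62 ± 0.12, adjusted p = 3.1e-06). The peroxidase had 115 and 119 in tolerant salt, against 711 and 657 in tolerant control (-2.51 ± 0.14, adjusted p = 8.2e-06). AARE2, an acylamino-acid-releasing enzyme, had 117 and 80.3 in tolerant salt, against 841 and 218 in tolerant control (-2.10 ± 0.50, adjusted p = 0.034); its control arrays differed widely from each other, and without control replicate 1 the change was -1.13 and did not pass.

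Of all probe sets, whatever their annotation, the 3 largest fitted rises were at 2 probe sets with no gene in the annotation and at LOC4339527, which has no name. One had 210 and 219 in tolerant salt, against 0.707 and 1.72 in tolerant control, values too dim to fix the size of its change, which ran from 5.25 to 6.64 over the alternatives. Another had 1839 and 2189 in tolerant salt, against 55.2 and 43.6 in tolerant control (5.24 ± 0.24, adjusted p = 3.1e-06). LOC4339527 had 904 and 683 in tolerant salt, against 29.4 and 30.3 in tolerant control (4.55 ± 0.22, adjusted p = 3.1e-06). The 3 largest fitted falls were at LOC9270227, which has no name (-4.60 ± 0.35), and at 2 probe sets with no gene in the annotation. One of these had 43.6 and 44.8 in tolerant salt, against 1115 and 1087 in tolerant control (-4.52 ± 0.31). The other had dim salt values, 1.28 and 15.8, against 285 and 274 in tolerant control, and its change ran from -5.74 to -3.84 over the alternatives. LOC9270227 had 80.8 and 45.9 in tolerant salt, against 1623 and 1526 in tolerant control.

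Seed storage protein genes and GBSS1, genes of the starchy endosperm, the storage tissue of the grain, made up the 5 largest named falls. Among them GLUD-1 had dim salt values. Of 15 seed storage protein probe sets tested 0 rose and 6 fell under both scalings, with a list median of -1.79 beside -0.14 for all probe sets. GLUD-1 (49 and 39.6) and GLUA-1 (31.1 and 39.0) reached the median signal on the tolerant control arrays alone, which admitted them to testing. On every other bulk array GLUD-1 was at most 2.48 and GLUA-1 at most 3.98. A probe set admitted this way can only be lower in tolerant salt, which favours falls in this list. GLUD-1 is among the 6 falls, and GLUA-1 did not pass in limma (adjusted p = 0.074). RA14, a seed allergen of the alpha-amylase inhibitor family also called RAG2, had 53 and 63.3 in tolerant salt, against 725 and 724 in tolerant control (-3.56 ± 0.24, adjusted p = 2.4e-05). PROLM25, a prolamin, had 47.7 and 47.6 in tolerant salt, against 546 and 547 in tolerant control (-3.41 ± 0.23, adjusted p = 2.4e-05). GBSS1, the granule-bound starch synthase of amylose synthesis, had 576 and 586 in tolerant salt, against 3825 and 4791 in tolerant control (-2.87 ± 0.22, adjusted p = 5.2e-05).

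The glutelins, the main storage proteins of rice, followed at lower signals. GLUB-5 had 11 and 27.9 in tolerant salt, against 195 and 200 in tolerant control (-3.20 ± 0.37, adjusted p = 7.8e-04). GLUD-1 had 0.688 and 1.43 in tolerant salt, against 49 and 39.6 in tolerant control (-3.25 ± 0.77, adjusted p = 0.035), and GLUA-2 fell by 1.82 ± 0.36 (adjusted p = 0.014). The calls of GLUD-1 and GLUA-2 were lost without any 1 of the 4 tolerant arrays, and the salt values of GLUD-1 are below the median signal.

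Probe sets of these genes did not all move. Other RA14 probe sets had changes of -1.71, -0.30 and -0.04, none past the threshold, and 3 other GBSS1 probe sets had -1.65, -0.70 and 0.25 with no signal above 55.2 on any of the 4 arrays. A second called probe set of GBSS1 had 125 and 140 in tolerant salt, against 422 and 412 in tolerant control (-1.62 ± 0.23). Many of these probe sets are of the type that can bind several related transcripts, and the part of shared signal was not tested. Starch synthase SSI moved the other way, with 482 and 488 in tolerant salt, against 288 and 242 in tolerant control (0.87 ± 0.19, adjusted p = 0.023). It was the 1 rise among 23 tested probe sets for starch enzymes and alpha-amylases, and the 2 falls of that list were GBSS1 probe sets. Over all probe sets 0.985% rose and 4.42% fell. The summed signal of the 28 probe sets of that list was 9214 and 8895 in tolerant salt and 13175 and 14872 in tolerant control. It was 9406 and 9072 in sensitive salt and 5627 and 5449 in sensitive control.

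The tolerant control arrays were the ones that stood apart for these genes. Summed over the 16 seed storage probe sets on the array, the signal was 397 and 411 in tolerant bulk salt and 2190 and 2082 in tolerant bulk control, and it was 545 and 483 in sensitive bulk salt and 388 and 322 in sensitive bulk control. For 9 of the 15 tested, both tolerant control arrays were above all 6 other bulk arrays, which held for 12.7% of all probe sets tested. For GLUD-1 and GLUA-1 this order was set by the filter, since only the tolerant control arrays admitted them to testing. Of the 103 falls beyond 2 log2 units 53 had this order. All 4 salt arrays of both bulks were below all 4 control arrays for 64 of them, and for 12.3% of all probe sets tested. The call of a fall selects for the tolerant part of both orders. Of 16 seed storage probe sets 6 were at or above the median signal on all 4 tolerant arrays. The part of grain tissue left on the seedlings was not tested.

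**Figure D3:**
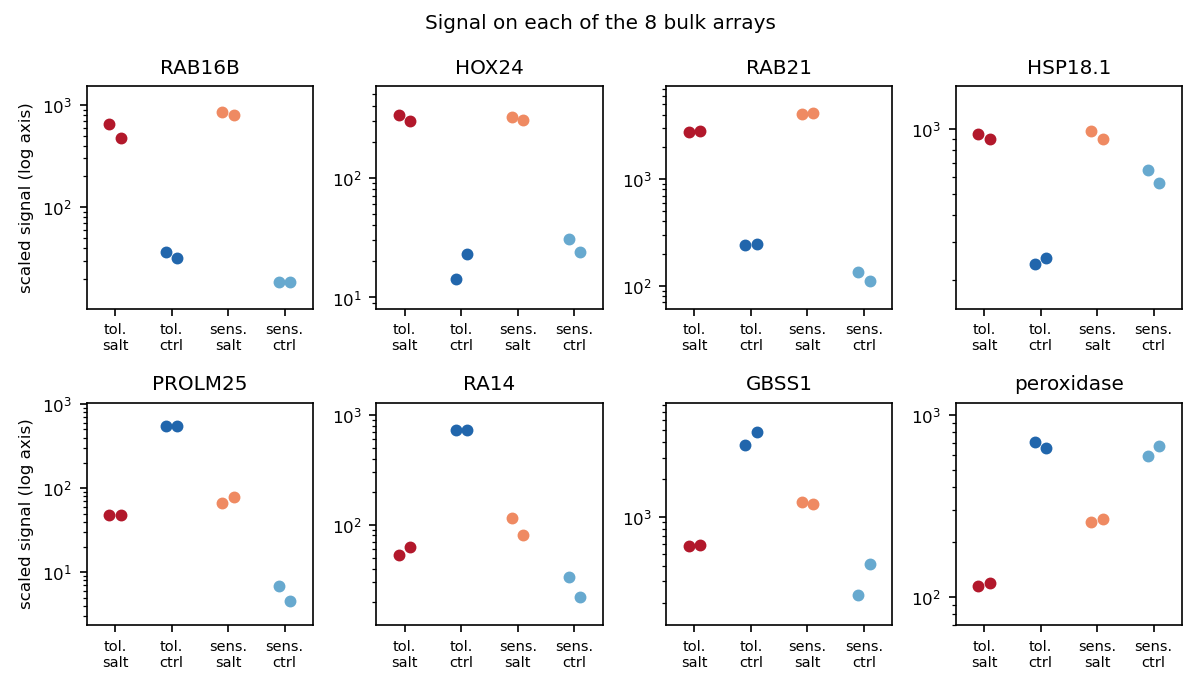
Scaled signal (log axis) of 8 probe sets on each of the 8 bulk arrays, in the order tolerant salt, tolerant control, sensitive salt and sensitive control, each point 1 array. RAB16B, HOX24 and RAB21 were high in both salt groups, while PROLM25, RA14 and GBSS1 were highest in tolerant control, at 546 and 547, 725 and 724, and 3825 and 4791.

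**Figure D4:**
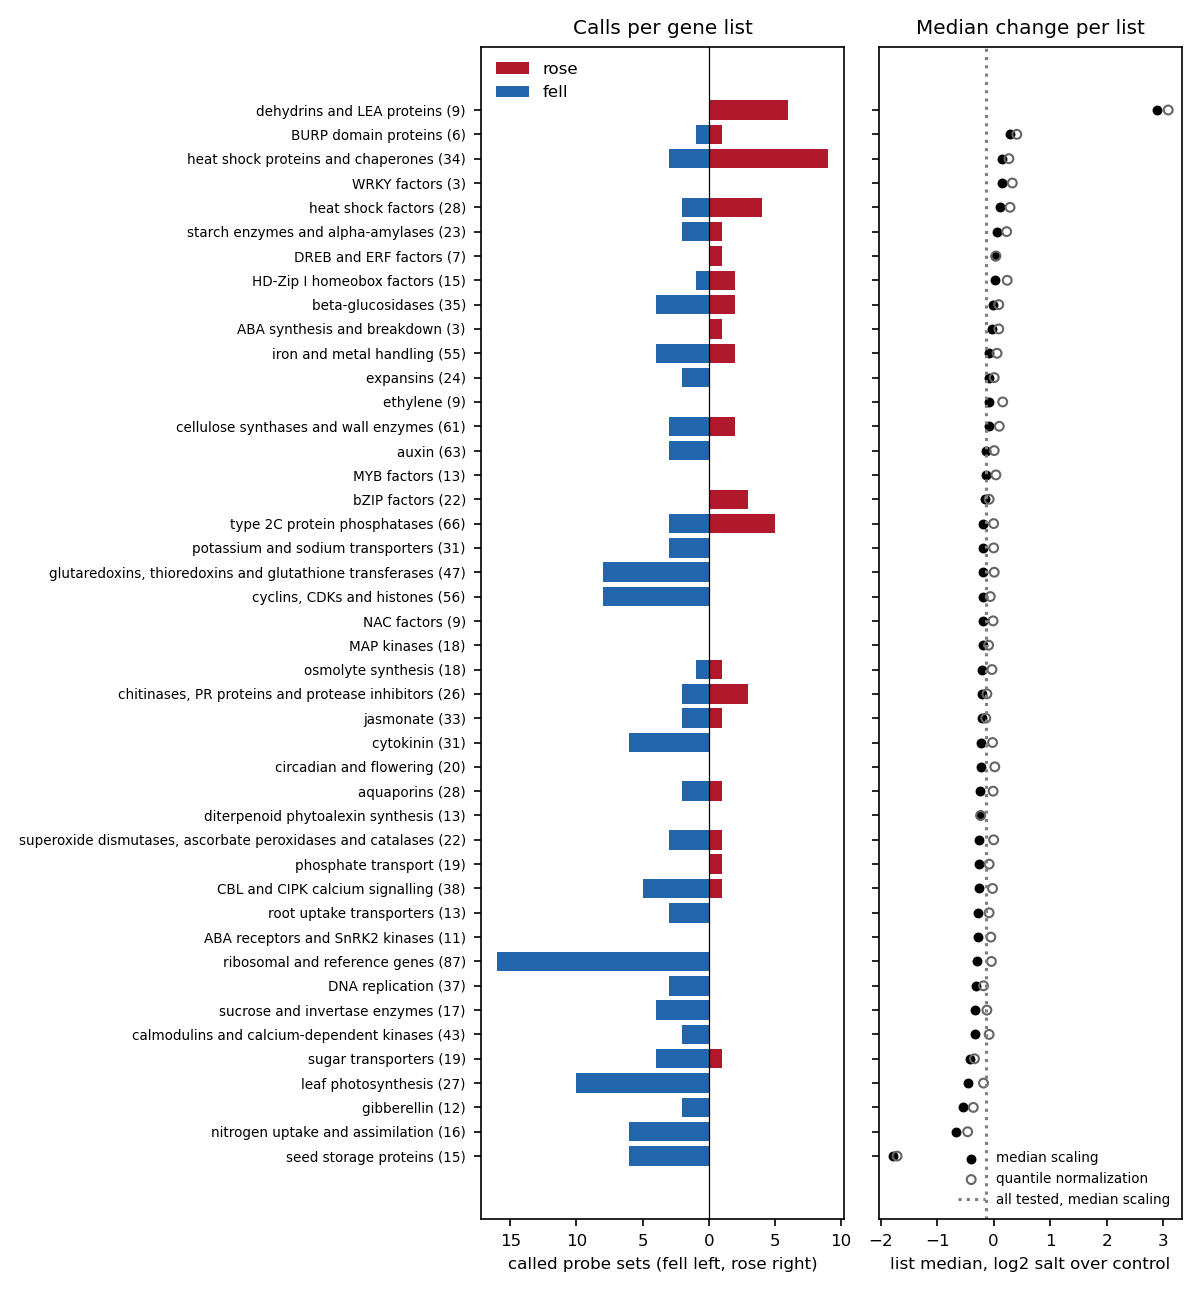
Called probe sets of 44 gene lists that rose (red, right) or fell (blue, left) with salt in the tolerant bulk, with the number tested in brackets, and the median change of each list under median scaling (filled) and quantile normalization (open). Dehydrins and LEA proteins, with 6 rises of 9 and a median of 2.89, and seed storage proteins, with 6 falls of 15 and a median of -1.79, lie at the ends; the dotted line marks the median of all probe sets tested, -0.14.

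Reference genes fell in part under median scaling. Of 87 probe sets for ribosomal proteins, tubulins, actins, ubiquitins and similar genes 0 rose and 16 fell under median scaling, with a median of -0.30, and 2 rose and 6 fell after quantile normalization, with a median of -0.04. ACT1, an actin, had 3034 and 3267 in tolerant salt, against 4455 and 5174 in tolerant control (-0.61, adjusted p = 0.019; -0.35 after quantile normalization, adjusted p = 0.090).

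Most of the response had the same direction in the sensitive bulk, which shares no array with the tolerant bulk but shares the estimate of the spread. Of the 325 rises 302 (92.9%) had a change above 0 in the sensitive bulk, and of the 1460 falls 1360 (93.2%) had a change below 0. The matching share over all probe sets tested is not given here. The 211 rises called in both bulks were 64.9% of those of the tolerant bulk and 36.8% of those of the sensitive bulk, where 573 rose (1.74%). The 689 falls called in both were 47.2% of the tolerant and 43.8% of the sensitive falls, of which there were 1574 (4.77%) among 2147 calls (6.51%). All 4 salt arrays of both bulks were above all 4 control arrays for 258 of the 325 rises, and for 3.13% of all probe sets tested. The call selects for the tolerant part of this order, so these shares are not like for like. Of the 5273 probe sets with both tolerant salt arrays above both tolerant control arrays, 1032 had the full order.

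The response itself differed between the bulks at 57 probe sets (0.173%) by the test of the difference. In 52 of them the change was lower in the tolerant bulk and in 5 it was higher. Of the 57, 36 fell in the tolerant bulk, 42 rose in the sensitive bulk, and 25 did both. The control arrays differed for the same probe sets: 43 of 57 were called higher in tolerant control than in sensitive control, where 1.45% of all probe sets were called in either direction. A fall in the tolerant bulk and a high tolerant control are 1 measurement here, since the control arrays enter both.

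The largest differences among named genes were those of the seed genes. PROLM25, at 47.7 and 47.6 in tolerant salt and 546 and 547 in tolerant control, had 67.5 and 77.8 in sensitive salt and 6.97 and 4.51 in sensitive control, so it fell in the tolerant and rose in the sensitive bulk (difference -6.40 ± 0.32, adjusted p = 9.4e-06). GBSS1 had 1319 and 1274 in sensitive salt and 232 and 416 in sensitive control, with a difference of -4.92 ± 0.32 (adjusted p = 5.2e-05). AMY1.1, an alpha-amylase, had 3690 and 3829 in tolerant salt and 4659 and 5590 in tolerant control, and 2907 and 2972 in sensitive salt and 950 and 745 in sensitive control (difference -2.24 ± 0.20, adjusted p = 7.8e-04).

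Among stress genes the dehydrin RAB21 rose less in the tolerant bulk. It reached 2760 and 2805 in tolerant salt, against 4097 and 4136 in sensitive salt, and had 243 and 245 in tolerant control, against 135 and 110 in sensitive control (difference -1.54 ± 0.19, adjusted p = 0.0074). This call was lost without any 1 of the 4 tolerant or the 2 sensitive salt arrays (adjusted p up to 0.10), at differences of -1.69 to -1.39. RAB16B, LEA3-1, RAB16D and RAB16C did not pass this test (adjusted p = 0.17, 0.71, 0.98 and 0.58). HSP18.1 was 1 of the few with a larger change in the tolerant bulk: 954 and 896 in tolerant salt, against 983 and 897 in sensitive salt, and 238 and 254 in tolerant control, against 647 and 566 in sensitive control (difference 1.26 ± 0.19, adjusted p = 0.034). The salt values of HSP18.1 overlapped between the bulks and the control values did not. Its call too was lost without any 1 of the 4 tolerant or the 2 sensitive salt arrays (adjusted p up to 0.28), at differences of 1.17 to 1.36.

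The peroxidase fell in both bulks, by more in the tolerant one. It had 115 and 119 in tolerant salt and 711 and 657 in tolerant control, against 259 and 266 in sensitive salt and 590 and 673 in sensitive control (difference -1.26 ± 0.20, adjusted p = 0.043), and its control values overlapped between the bulks. This call was lost under 9 of 12 other settings (adjusted p up to 0.28), among them each omission of a tolerant or a sensitive salt array. PBZ1 fell in the tolerant bulk under median scaling, with 412 and 396 in tolerant salt and 640 and 616 in tolerant control, and rose in the sensitive bulk, with 793 and 790 in salt and 378 and 324 in control (difference -1.80 ± 0.19, adjusted p = 0.0025). HOX24, PP2C30, P5CS2, BURP16, HAK5 and DREB1B had no called difference (adjusted p = 0.83, 0.70, 0.76, 0.25, 0.18 and 0.60), which does not show that they respond alike.

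**Figure D5:**
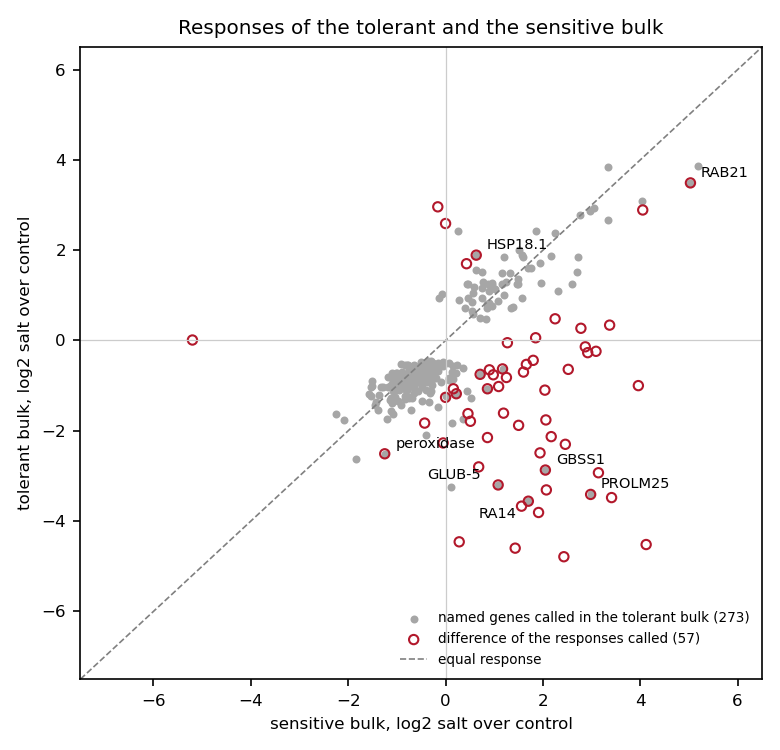
Change with salt (log2 salt over control) in the tolerant bulk (vertical) against the sensitive bulk (horizontal), for 273 named genes called in the tolerant bulk (grey) and 57 probe sets whose responses differ (red rings). Most points lie near the line of equal response, and the ringed seed genes PROLM25, RA14, GBSS1 and GLUB-5 lie at the lower right, down in the tolerant and up in the sensitive bulk.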

How the data were processed

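The deposited table holds 1 intensity per probe set and array on a linear scale, made by the authors in GCOS 1.2 (per the submitters' processing notes); sources used here give neither scaling settings nor detection calls. From these intensities 123 control probe sets were left out, the 8 bulk arrays were scaled to a common median of 18.4, and log2(signal + 4) was taken, 4 being the 25th percentile of scaled values. Probe sets at or above 18.4 on at least 2 of 8 arrays were tested (32996 of 57258) with limma 3.58.1 in R 4.3.3 (group means, lmFit, eBayes with an intensity trend, two-sided), and Benjamini-Hochberg adjusted p under 0.05 was called. The residual degrees of freedom were 4 and the median residual SD was 0.262 log2 units; the number of arrays limits the precision. The test was checked on simulated data.

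Genes came from the platform annotation, matched by gene ID to RefSeq assembly ASM3414082v1, used for names and gene order only: 22436 probe sets had 1 gene, 95 several and 34727 none. All 17905 genes matched and 2456 have a name. The assembly is of a Japonica rice while the plants are Indica. The choice of this comparison, whose member arrays follow from sample titles, and of the gene lists was made with earlier results of these data known. Lists hold members by name, and 6 entries matched through a synonym of another gene were removed after values had been seen. Named genes are the 15 largest rises and 15 largest falls with non-overlapping arrays (1 probe set a gene), up to 4 called and 2 bright uncalled members of each list, P5CS1, HKT1;5 and salT, the 3 largest rises and falls of any probe set, and the called differences; further list members named in the text were chosen after their values were seen. Same-numbered arrays did not deviate together across probe sets (r of -0.000494 to 0.0265 over 6 pairs of groups), so no block was used. The control medians before scaling did share an order. They were 23.4 (tolerant) and 26.1 (sensitive) for replicate 1, and 15 and 15.9 for replicate 2. The alternatives were a replicate block, quantile normalization, testing without a filter, 0.25 of the pseudocount, only the 4 tolerant arrays, and leaving out each array. A planned search of promoter sequence was not run.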

Additional observations from a re-analysis of the deposited data

Results flagged for a closer look

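The salt response differed between the tolerant and the sensitive bulk at 16 probe sets with a named gene, by limma's test of the difference, tolerant minus sensitive. The difference was -6.40 and -4.75 log2 units at the probe sets of PROLM25, -5.25 for RA14, -4.92 and -2.09 for GBSS1 and -4.29 for GLUB-5. It was -2.24 for AMY1.1, -1.93 for the cysteine protease EP3A, -1.80 for PBZ1, -1.54 and -1.17 for RAB21, -1.46 for cbp3, -1.40 for the non-symbiotic haemoglobin NSHB2 and -1.26 for the peroxidase. Only HSP18.1, at 1.26 and 1.27, was positive among these 16.

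EP3A, cbp3 and NSHB2 have not been described above. EP3A had 1987 and 1985 in tolerant salt, against 3872 and 4495 in tolerant control. The gene cbp3 had 1560 and 1349 in tolerant salt, against 2253 and 2652 in tolerant control. Its fall in the tolerant bulk did not pass in limma after quantile normalization (-0.45, adjusted p = 0.058). NSHB2 had 672 and 580 in tolerant salt, against 1417 and 1414 in tolerant control. In control seedlings these 3 genes were higher in the tolerant than in the sensitive bulk, by 2.03, 1.64 and 1.47 log2 units.

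The calls for EP3A, NSHB2, HSP18.1, the peroxidase and both probe sets of RAB21 were lost without any 1 of the 4 tolerant or the 2 sensitive salt arrays. Those for cbp3, GLUB-5 and the weaker probe sets of PROLM25 and GBSS1 were lost without 3 to 5 of these 6 arrays. The calls for RA14, AMY1.1, PBZ1 and the stronger probe sets of PROLM25 and GBSS1 held under all 12 alternatives.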

How the results depend on the processing

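The 1785 calls of the tolerant bulk became 1642 after quantile normalization (1213 shared), 1201 without a filter, 1751 with 0.25 of the pseudocount, 1978 with the replicate block and 4195 with only the 4 tolerant arrays. Leaving out 1 array gave 379 to 4448 calls: 541 and 538 without tolerant salt replicate 1 or 2, 499 and 379 without tolerant control replicate 1 or 2, 1135 and 1130 without sensitive salt replicate 1 or 2, and 4412 and 4448 without sensitive control replicate 1 or 2. The 32996 probe sets tested were the same in the fits that left out an array. All 1785 calls were among the 4412 and among the 4448. The 57 differences between the bulks became 36 without a filter, 74 after quantile normalization, 61 with the replicate block and 25 to 281 without 1 array; the highest counts, 210 and 281, came without sensitive control replicate 1 or 2. The sensitive control arrays had the lowest correlation within a group (0.9455), and all groups share 1 estimate of the spread. The cause of the higher counts without either of these arrays was not tested. No named call turned into a call of the opposite sign under these settings. Small uncalled changes could change sign, as that of ABA8OX1 did (-0.03, and 0.09 after quantile normalization). Of the 30 largest named changes 21 were called under all 13 settings; PP2C59, DREB1B, LAC24, GLUD-1, AARE2, GLUA-2, HAK17, HAK5 and Nramp1 were not. Of 258 named results 24 lost their call after quantile normalization and 11 gained one. Signals under 18.4, the median of the scaled values, are dim. Without detection calls it is not known how far such signals can be ranked.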
